A study of Mus musculus with 21 samples.

Results

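The comparison described here sets splenic CD4+ T cells taken 12 h after 80 µg of the [4Y] MBP peptide against cells taken 12 h after 0.8 µg, across all genes. It uses 6 of the 21 libraries of the series, 3 for each dose, chosen by the dose and time in their labels. Both groups came from Tg4 Tiger Nr4a3-Tocky mice given the peptide subcutaneously, per the study without adjuvant. Tg4 is a transgenic T cell receptor (TCR) for a peptide of myelin basic protein (MBP), Tiger is an Il10-GFP reporter, and Nr4a3-Tocky uses Nr4a3 to drive Timer, a fluorescent protein that is first blue and matures to red. Per the study, the cells sorted at 12 h were Blue+Red+, that is, cells with both older and recent reporter activity. The other groups are 3 libraries from unimmunised mice of the same strain, used here as the control level, and 3 for each dose at 4 h and at 24 h. The gate differs between the times, so that gate and time cannot be told apart. Nr4a3 drives the reporter behind the gate, which touches its own level. Most T cells of this model recognise 1 peptide, which limits it as a picture of a mixed response.

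The question of the comparison is how the amount of antigen shapes gene expression in responding cells at the same stage of Timer maturation. A T cell that binds antigen first turns on immediate early genes such as Nr4a1 and Egr1 through calcium, MAP kinase and NF-kB signalling. Over the following hours it makes cytokines, costimulatory and coinhibitory receptors, grows, and enters the cell cycle. Type 1 regulatory (Tr1) cells are CD4+ T cells that make the cytokine IL-10 without depending on Foxp3.

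The 6 libraries held 3134516 to 4953890 counts, within a range of 2352800 to 6244279 over the series, and 3 counts, the floor used here, correspond to 0.606 to 0.957 counts per 1000000 (CPM) in them. Values below are normalised read counts, the counts divided by a size factor for the library, unless CPM is named. Replicates of a dose, which the labels call biological, differed by more than sampling noise, and each of the 3 was kept. Replicate 3 of 0.8 µg stood apart from the other 0.8 µg libraries, with a chi-square per degree of freedom of 14.8 and 14.4 against replicates 1 and 2, which differed from each other by 3.35, while pairs of 80 µg libraries were at 4.87 to 9.49. In it the predicted gene Gm42418 took 25.7% of the counts, against 17.0% and 18.2% in the other 0.8 µg libraries and 19.9% to 24.5% with 80 µg, and a larger share of 1 gene lowers the CPM of the others. Without this library 330 genes were called, 208 higher and 122 lower, against 311, 204 and 107 with it. The fewest were called without 80 µg replicate 2, 227 genes, 159 higher and 68 lower. Libraries 1 and 2 of each dose carried Xist and library 3 of each dose carried Y-linked transcripts, so the doses were balanced for sex at 12 h. Mitochondrial transcripts took 6.00% to 6.09% of the counts with 0.8 µg and 5.00% to 5.53% with 80 µg (exact permutation test, two-sided, p = 0.1, the smallest that 3 against 3 allows).

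CD4 T cell markers were detected in every library, with a summed level of 2282 to 2348 CPM with 0.8 µg and 2510.3 to 2654 CPM with 80 µg, against 4887 to 5232 CPM in the control. Of the 12, Cd5 was called, higher with 80 µg. At a DESeq2 adjusted p under 0.05 and any fold size, 5 were higher and 2 lower. Against the direction of the sum, Cd4 had 232 to 262 CPM with 0.8 µg and 139 to 192 CPM with 80 µg. Thy1 had 244 to 365 and 134 to 197 CPM. Both CD8 markers were called lower with 80 µg. Cd8a had 17.8, 14.3 and 16.0 CPM in the 0.8 µg libraries, 0.840, 0.807 and 1.74 CPM in the 80 µg libraries and 0.615 to 2.98 CPM in the control. The low-dose libraries therefore lay above both other groups. Cd8b1, the partner chain, had 29.3 to 33.5 CPM with 0.8 µg and 12.3 to 20.9 CPM with 80 µg, while the control had 30.5 to 44.6 CPM. The Cd8b1 call (log2 fold change -1.02) was lost on fold size without 0.8 µg replicate 3 or 80 µg replicate 1 or 2 (log2 fold changes -0.92, -0.90 and -0.91) and in the fit to the 6 libraries alone (-0.83). Markers of regulatory T cells summed to 449 to 707 CPM with 0.8 µg, 829 to 925 CPM with 80 µg and 150.4 to 237 CPM in the control, and 2 of 9 were called higher (Ctla4 and Il2ra) and 1 lower (Ikzf2). Most of the sum with 80 µg was Il2ra, at 553 to 609 CPM, against 200 to 343 CPM with 0.8 µg. Foxp3 had 0.957 to 6.33 CPM with 0.8 µg and 5.05 to 8.68 CPM with 80 µg and was not called. Markers of B cells (46.9 to 141 CPM against 43.9 to 111 CPM), myeloid cells (24.9 to 48.5 against 8.13 to 42.0), dendritic cells (17.9 to 81.0 against 14.2 to 43.1) and NK cells (4.79 to 6.14 against 6.10 to 12.1) overlapped between the doses, the value for 0.8 µg given first. Flt3, Zbtb46, Clec9a, Cd209a, Cd14, Klra1 and Klre1 had 0 counts in all 6 libraries. Pax5 was the 1 gene of these 4 lists that was called, lower with 80 µg (log2 fold change -2.005 with an SE of 0.64, adjusted p = 0.0349), and it was not called without 0.8 µg replicate 1 (adjusted p = 0.32), the library with the highest B cell marker sum, nor without 0.8 µg replicate 2 or 80 µg replicate 2 or 3 (0.0742, 0.197 and 0.186). The part of other cell types and of mitochondrial content in the results was not tested, and in bulk RNA fewer cells of a type and less RNA per cell cannot be told apart.

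Of 11145 genes tested, 311 (2.79%) were called, 204 (1.83%) higher and 107 (0.960%) lower with 80 µg. A gene was called when its adjusted p (DESeq2 Wald test, Benjamini-Hochberg) was under 0.05 and its shrunken log2 fold change, 80 µg over 0.8 µg, was above 1 in size. The dose groups did not overlap for 201 of the genes called higher and 100 of those called lower, while 19.0% of all genes tested did not overlap. Of the genes called higher, 101 stood above the control mean at both doses, 55 had the control mean between the doses and 48 stood below it at both. Among the genes called lower the counts were 23, 32 and 52. The median log2 fold change over all genes tested was 0.01. A fit to the 6 libraries alone, without the spread of the other groups, called 145 genes, 139 of them among the 311, and 156 of the 311 were called after leaving out any of the 6 libraries in turn.

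**Figure D1:**
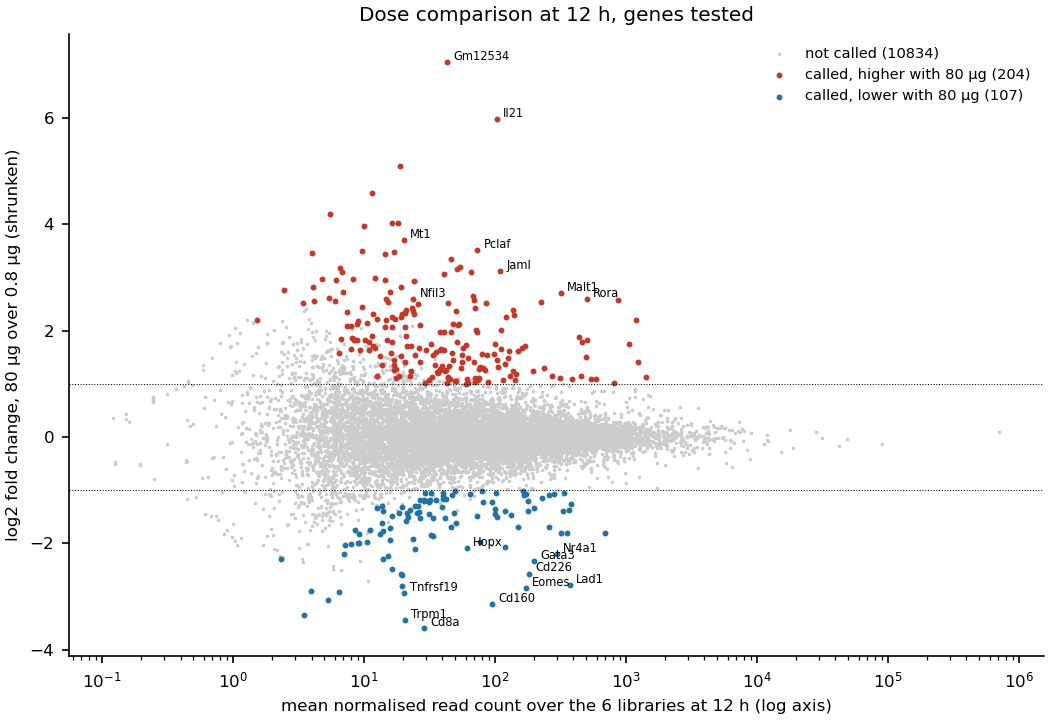
Each point is a gene tested at 12 h, with its mean normalised read count over the 6 libraries (log axis) against the shrunken log2 fold change of 80 µg over 0.8 µg. Red points are the 204 genes called higher and blue points the 107 called lower, dotted lines mark a log2 fold change of 1 in each direction, and 18 genes of the largest changes are named.

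The genes that rose most with 80 µg and had a mean of at least 20 counts included a cytokine, transcription factors, and chemokine and cytokine receptors. Il21, encoding a cytokine of follicular helper cells (chromosome 3, 37222759 to 37232636 of GRCm38), had 4.90, 2.26 and 0 counts in the 0.8 µg libraries and 199, 248.7 and 165 in the 80 µg libraries, beside 1.03, 2.03 and 0 in the control (log2 fold change 5.97 with an SE of 0.53, adjusted p = 1.37e-21). Gm12534, transcribed across Il21 exons from the other strand, had 0 counts in all libraries of 0.8 µg and 72.2, 109 and 76.8 with 80 µg, at least 29.6-fold higher against a floor of 3 counts per library. Reads in exonic bases shared by the 2 genes can be told apart only if counting used strand, which is not stated.

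Prdm1, which encodes the repressor Blimp-1 (chromosome 10, 44437177 to 44528501), was at 16.7, 7.52 and 4.70 counts with 0.8 µg and 99.6, 123 and 74.8 with 80 µg (log2 fold change 3.20 with an SE of 0.43, adjusted p = 3.42e-11). Every high-dose library was above the control (40.2, 25.4 and 62.8) and every low-dose library below it. Rora, encoding a nuclear receptor, had 109.8, 247 and 28.2 counts with 0.8 µg, a wide spread, and 747, 1079 and 832 with 80 µg (log2 fold change 2.59, adjusted p = 1.68e-05). It was called after leaving out any 1 library, but not in the fit to the 6 libraries alone. Nfil3, a bZIP factor, went from 5.96 ± 2.01 to 41.9 ± 16.1 counts (mean ± SD, 3 libraries each; log2 fold change 2.60, adjusted p = 0.00042).

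Malt1, the protease of the signalling complex that links the TCR to NF-kB, had 86.3, 88.8 and 75.1 counts with 0.8 µg, 630.3, 614 and 431 with 80 µg and 279, 222 and 224 in the control (log2 fold change 2.71 with an SE of 0.19, adjusted p = 4.02e-41). Malt1 thus lay below the control with the low dose and above it with the high dose, with no overlap. Il1r1, the IL-1 receptor, had 12.7, 24.1 and 14.1 counts with 0.8 µg and 90.4, 141 and 126 with 80 µg (log2 fold change 2.66, adjusted p = 5.46e-06). Cxcr3, a chemokine receptor of type 1 helper (Th1) cells, had 6.86, 6.02 and 1.17 counts at 0.8 µg and 41.1, 54.3 and 36.9 at 80 µg (log2 fold change 2.93, adjusted p = 2.48e-08). The remaining rises above a log2 fold change of 3 with this mean were Mt1 (3.70), a metallothionein that binds zinc, Gm14005 (3.34), a long noncoding RNA, Neb (3.17), which encodes the muscle protein nebulin, Jaml (3.12), an adhesion molecule, Cpd (3.11), carboxypeptidase D, Ly6c1 (3.07), a surface antigen, and Pclaf (3.51), which is described with the cell cycle genes. The control levels behind these rises differed. Mt1 and Gm14005 were at most 2.03 and 4.28 counts in the control, while Ly6c1 had 293, 307 and 298 there, above the 86.8, 96.1 and 38.9 of the high dose and the 10.8, 7.52 and 4.70 of the low dose.

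The genes that fell most with 80 µg were led by Cd8a, a coreceptor chain of CD8 T cells, with 56.9, 45.9 and 58.7 counts at 0.8 µg and 2.74, 2.93 and 5.83 at 80 µg (log2 fold change -3.58 with an SE of 0.54, adjusted p = 2.84e-08). Lad1, encoding the membrane-anchoring protein ladinin, had the highest low-dose level of the 15 named (688, 535 and 749 counts against 86.8, 96.1 and 100.1; log2 fold change -2.77 with an SE of 0.20, adjusted p = 4.02e-41), and the control had no more than 4.28. Cd160, a coinhibitory receptor, fell from 173 ± 31.7 to 18.8 ± 6.92 counts (log2 fold change -3.14, adjusted p = 2.3e-17), and Pdzk1, on the other strand, shares exonic bases with it. Cd226, the activating receptor DNAM-1, had 296, 292 and 351 counts with 0.8 µg, 39.3, 52.1 and 64.2 with 80 µg and 84.5, 106 and 84.2 in the control (log2 fold change -2.56 with an SE of 0.21, adjusted p = 1.81e-29). The control of Cd226 lay between the doses, in every library.

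A pair of lineage factors fell with them. Eomes, the T-box factor of cytotoxic cells, went from 305 ± 34.1 to 40.7 ± 10.8 counts (mean ± SD, 3 libraries each; log2 fold change -2.84, adjusted p = 8.85e-15). Gata3, the factor of type 2 helper cells (chromosome 2, 9857078 to 9890034), had 303, 307 and 393 counts with 0.8 µg, close to the 326, 371 and 383 of the control, and 62.1, 62.4 and 71.9 with 80 µg (log2 fold change -2.33 with an SE of 0.17, adjusted p = 1.02e-40). For Gata3 the low dose and the control overlapped, and the high dose stood apart from both. Trpm1, a cation channel (-3.43), Tnfrsf19, a TNF receptor family member (-2.93), Plcl1, a phospholipase C-like protein (-2.11), Hopx, a small homeodomain protein (-2.09), and Stap1, a signalling adaptor (-2.06), complete, together with Nr4a1, the called falls above 2 on the log2 scale among genes that averaged 20 or more counts and did not overlap between doses. Tagap, Vcam1 and Ttc28 followed at -1.97, -1.92 and -1.86. Vcam1, encoding an adhesion ligand, was near the threshold (adjusted p = 0.0437) and lost its call without any 1 of 5 libraries (all but 80 µg replicate 1), with an adjusted p of 0.0976 to 0.21.

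**Figure D2:**
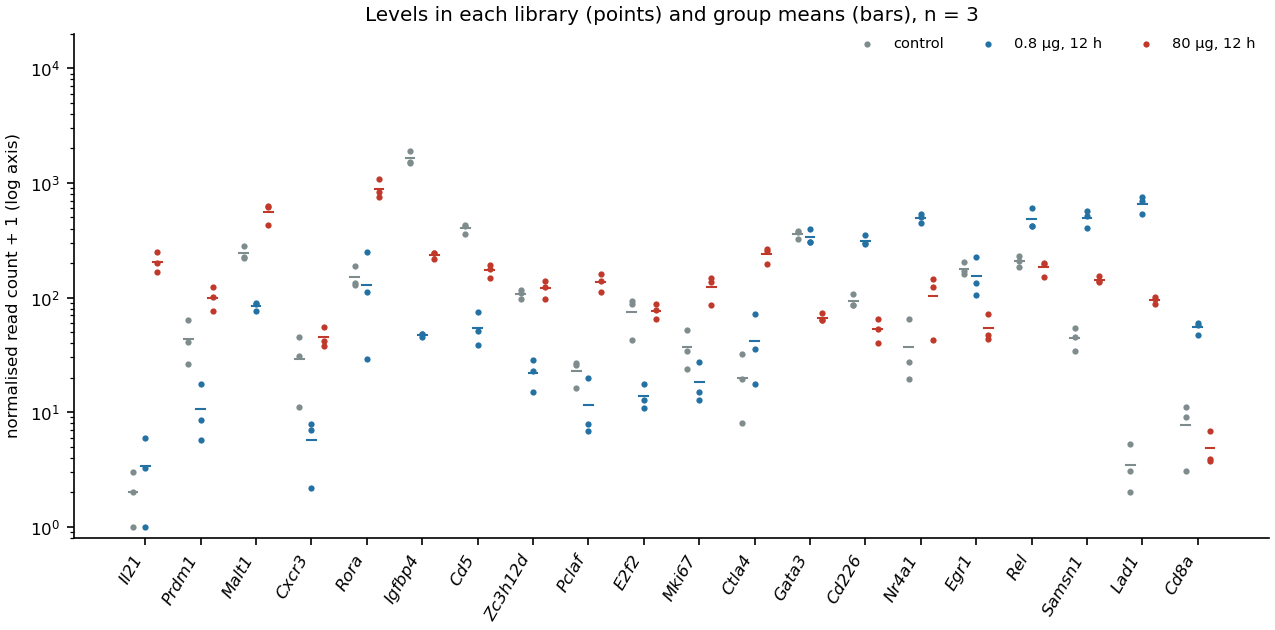
Normalised read counts plus 1 (log axis) of 20 genes in the control (grey), 0.8 µg (blue) and 80 µg (red) libraries at 12 h; points are libraries and bars the group means. The 3 high-dose libraries of Malt1 sit between 431 and 630 counts and those of Gata3 between 62.1 and 71.9, on opposite sides of the low dose and of the control.

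Genes of the first wave of TCR signalling did not move as a block. Of 23 immediate early and TCR-responsive regulators tested, 3 were called higher and 5 lower, with a median log2 fold change of -0.38. The shares over all genes tested were 1.83% higher and 0.960% lower. Nr4a1, an orphan nuclear receptor, had 449, 535 and 503 counts with 0.8 µg and 122, 41.8 and 145 with 80 µg, beside 18.6, 26.4 and 64.2 in the control (log2 fold change -2.19 with an SE of 0.38, adjusted p = 6.1e-07). Nr4a3, the gene of the reporter used for the gate, had 444, 472 and 769 counts at 0.8 µg and 121, 151 and 191 at 80 µg (log2 fold change -1.80, adjusted p = 5.79e-05). Both remained above the control mean at both doses. Egr1, a zinc finger factor, had 133, 104 and 225 counts with 0.8 µg, a range that held the 204, 170.4 and 158 of the control, and 45.7, 42.6 and 71.0 with 80 µg (log2 fold change -1.51, adjusted p = 2.5e-07), below every control library. Tnfrsf9, the costimulatory receptor 4-1BB, went from 1099 ± 208 to 304 ± 92.9 counts (log2 fold change -1.79, adjusted p = 3.02e-05), and Tagap, a GTPase-activating protein, from 124 ± 21.2 to 30.8 ± 5.15.

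The 3 members that rose were Egr2, Pim1 and Irf4. Egr2, a relative of Egr1, had 17.6, 24.1 and 11.7 counts with 0.8 µg and 74.0, 56.5 and 45.7 with 80 µg (log2 fold change 1.63, adjusted p = 0.000216), opposite in direction to Egr1. Pim1, a serine/threonine kinase, rose from 256 ± 61.0 to 736 ± 77.0 counts (log2 fold change 1.504, adjusted p = 1.07e-18). Irf4, a factor whose level follows TCR strength, had 494, 626 and 492 counts with 0.8 µg and 1229.6, 1176 and 862 with 80 µg (log2 fold change 1.01, adjusted p = 3.95e-09). Its fold change lay so close to the threshold that it was no longer called without 0.8 µg replicate 1 or 3 or 80 µg replicate 1 or 2 (log2 fold change 0.91 to 0.96), with an adjusted p of at most 5.55e-06. Myc (187 at 0.8 µg against 194 counts), Cd69 (139 against 120.3) and Nr4a2 (28.4 against 19.6) did not pass the test (adjusted p = 0.96, 0.549 and 0.372).

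In the NF-kB list, 1 of 22 members was called higher, Malt1, and 2 lower, beside 1.83% and 0.960% of all genes tested. Rel, encoding the subunit c-Rel, had 417, 421 and 607 counts with 0.8 µg, 149, 201 and 196 with 80 µg and 231, 185 and 206 in the control (log2 fold change -1.39 with an SE of 0.14, adjusted p = 8.28e-20). Tnfaip3, encoding the feedback inhibitor A20, went from 43.9 ± 17.5 to 18.9 ± 3.08 counts (log2 fold change -1.22, adjusted p = 0.000315), a call lost without 0.8 µg replicate 1 (log2 fold change -0.99). Nfkb1 (-0.78), Relb (-0.67), Bcl10 (-0.44) and Chuk (-0.56) were lower past the p threshold but by less than the fold threshold, and Bcl3 (0.68) was higher in the same way. The list had 2 members with an adjusted p under 0.05 above 0 and 6 below, and its median was -0.17.

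None of 23 proximal TCR signalling genes was called by DESeq2 or by edgeR, while 7 had an adjusted p and 13 an unadjusted p under 0.05. Prkcq (0.84), the kinase PKC-theta, Txk (0.92), a Tec family kinase, and Cd247 (0.69), the zeta chain, were higher, while Rasgrp1 (-0.78), an activator of Ras, Cd4 (-0.54) and Ptprc (-0.48), which encodes CD45, were lower, all by less than 2-fold. The largest change of the proximal list, that of Trat1 (-1.86), was not called. Of 26 feedback genes of MAP kinase and receptor signalling, 2 were called, beside 2.79% of all genes tested. Cd5, an inhibitory receptor tuned to TCR strength, had 73.5, 49.6 and 37.6 counts with 0.8 µg, 192, 175 and 147 with 80 µg and 426, 356 and 421 in the control (log2 fold change 1.65 with an SE of 0.19, adjusted p = 1.39e-15). The 2 doses lay on the same side of the control for Cd5, the low dose further from it. Rgs1, a regulator of G protein signalling, went from 9.71 ± 4.90 to 33.3 ± 10.7 counts (log2 fold change 1.71, adjusted p = 0.00316) and was not called without 0.8 µg replicate 2 (adjusted p = 0.0675).

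Helper lineage transcription factors changed in both directions. Of all genes tested, 1.83% were called higher and 0.960% lower. Of the 35 factors tested, 8 were called higher (among them Bach2, Irf4, Maf, Nfil3, Prdm1, Rora and Tbx21) and 4 lower (Eomes, Gata3, Ikzf2 and Tox), with a median of 0.18. The number called higher was 5 in the fit to the 6 libraries and 5 to 9 when a library was left out, lowest without 0.8 µg replicate 3, while 4 were lower in each of these fits. Maf, encoding c-Maf, had 413, 588 and 232 counts with 0.8 µg and 2372, 1770.4 and 1797 with 80 µg (log2 fold change 2.20, adjusted p = 4.24e-09). Tbx21, encoding the Th1 factor T-bet, had 86.3, 69.95 and 38.7 counts at 0.8 µg and 184, 218 and 161 at 80 µg (log2 fold change 1.49, adjusted p = 2.19e-06), so that the 2 T-box factors, Tbx21 and Eomes, moved in opposite directions.

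Bach2, a repressor of effector programmes, had 448, 433 and 254 counts with 0.8 µg, 980.2, 792 and 657 with 80 µg and 761, 898 and 898 in the control (log2 fold change 1.08, adjusted p = 7.65e-07). The low dose lay below the control and the high dose overlapped it. Without 0.8 µg replicate 3 or 80 µg replicate 1 the log2 fold change of Bach2 was 0.87 and 0.92, under the threshold, with an adjusted p of at most 0.000378. Ikzf2, encoding Helios, had 423, 363 and 402 counts with 0.8 µg and 139.8, 119.6 and 104 with 80 µg (log2 fold change -1.69 with an SE of 0.20, adjusted p = 4.24e-14). Tox, an HMG-box factor of exhausted cells, went from 288 ± 48.3 to 114 ± 10.1 (log2 fold change -1.33, adjusted p = 1.87e-11). Tcf7, a factor of naive and memory cells, was lower past the p threshold (1209 against 761 counts, log2 fold change -0.67). Foxp3, at 11.5 and 23.3 counts, and Bcl6, at 40.3 and 30.1, did not pass the test (adjusted p = 0.384 and 0.505).

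The Tr1 list had the highest median of the lists with at least 5 members, 1.70. Of its 16 members tested, 10 were called higher and 1, Cd226, lower, beside 1.83% and 0.960% of all genes tested. Another 5 members received no adjusted p for their low mean count. Of these, Tigit, a coinhibitory receptor, had 0, 0 and 0 counts with 0.8 µg and 7.31, 8.07 and 12.6 with 80 µg, and Lag3, another, had 2.94, 6.02 and 3.52 and 12.8, 9.54 and 8.75. Several of its members were named by the study from these same libraries, so that its direction is not independent evidence. Those that rose included Il10, Il21, Prdm1, Maf, Nfil3, Irf4, Egr2, Icos and Ctla4. Il10, the suppressive cytokine behind the GFP reporter, had 3.92, 1.504 and 0 counts with 0.8 µg, 35.6, 38.2 and 23.3 with 80 µg and 3.09, 0 and 9.99 in the control (log2 fold change 3.48, adjusted p = 0.00161). Without 80 µg replicate 2 its log2 fold change was 3.07 and it received no adjusted p. Pdcd1, encoding PD-1, was at 37.1 and 71.3 counts (adjusted p = 0.0182, log2 fold change 0.92), short of the size needed, and Gzmb, granzyme B, at 43.9 and 92.9 (adjusted p = 0.158). Summed over the list, the low-dose libraries held 463 to 793 CPM and the high-dose libraries 1569 to 1965 CPM, against 229 to 271 CPM in the control.

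Follicular helper genes overlapped with that list: of 21 tested, 4 were called higher (Il21, Maf, Icos and Angptl2) and none lower, with a median of 0.51. Over all genes tested, 1.83% were called higher and 0.960% lower. Angptl2, a secreted angiopoietin-like protein, went from 7.02 ± 3.81 to 34.6 ± 3.45 counts (log2 fold change 2.07, adjusted p = 0.0149) and was called in 1 of the 6 fits that each left out a library (all but 0.8 µg replicate 2 lost it, adjusted p = 0.053 to 0.115). Th1 and cytotoxic effector genes divided, with 5 of 25 called higher (among them Tbx21, Cxcr3, Il12rb2 and Ccl4), 4 lower (Eomes, Hopx, Xcl1 and Fasl) and a median of -0.09. Both CD8 T cell markers, Cd8a (-3.58) and Cd8b1 (-1.02), were also lower, and the part of CD8 T cells in the 4 falls was not tested. The number called higher was 3 to 4 in the fits that each left out a library (3 without 0.8 µg replicate 1 or 3) and 2 in the fit to the 6 libraries. Fasl, the death ligand, had 40.2, 57.9 and 31.7 counts with 0.8 µg and 21.9, 20.5 and 12.6 with 80 µg (log2 fold change -1.21, adjusted p = 0.00684), a call lost without 0.8 µg replicate 2 or 80 µg replicate 3 (adjusted p = 0.144 and 0.067). Xcl1, a chemokine that attracts dendritic cells, had 23.5, 27.1 and 20.0 counts at 0.8 µg and 7.31, 0 and 5.83 at 80 µg (log2 fold change -2.29, adjusted p = 0.00239) and was not called without 80 µg replicate 2 (adjusted p = 0.0546). Ccl4, a chemokine, had 2 counts in all with 0.8 µg and 32 with 80 µg, a ratio of 14.7 (95% interval 3.75 to 127), and was not called without 0.8 µg replicate 1 (adjusted p = 0.0692). Ifng, the defining Th1 cytokine, had 109.8, 120.3 and 241 counts with 0.8 µg, 28.3, 29.3 and 34.99 with 80 µg and 0 in every control library. The doses did not overlap, but Ifng did not pass the DESeq2 test over the 21 libraries (log2 fold change -2.04, adjusted p = 0.0893). It passed in edgeR (log2 fold change -2.32, adjusted p = 0.00134) and in the DESeq2 fit to the 6 libraries alone (adjusted p = 3.63e-11).

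Among receptors of cytokines and their feedback genes, 6 of 41 were called higher and none lower, with a median of 0.05 (3 higher in the fit to the 6 libraries). The shares over all genes tested were 1.83% higher and 0.960% lower. Il2ra, the high-affinity IL-2 receptor chain, had 826, 1099 and 736 counts with 0.8 µg and 1989, 2011 and 1904 with 80 µg (log2 fold change 1.13, adjusted p = 3.66e-05), both far above the 76.3, 25.4 and 49.96 of the control. Il2, its ligand, rose from 18.2 ± 6.43 to 74.98 ± 19.9 counts (log2 fold change 1.97, adjusted p = 1.68e-05). Pim2, a kinase induced by cytokines, had 82.3, 77.5 and 83.4 counts at 0.8 µg and 213, 154 and 175 at 80 µg (log2 fold change 1.14, adjusted p = 1.76e-05). Socs3, a feedback inhibitor, had 48.0, 60.9 and 16.4 counts at 0.8 µg and 124, 68.2 and 204 at 80 µg (log2 fold change 1.55, adjusted p = 0.0115), with every library of either dose below the 224, 223 and 244 of the control, and its call was lost without 0.8 µg replicate 3 or 80 µg replicate 3 (adjusted p = 0.0697 and 0.157). Il12rb2, a chain of the IL-12 receptor, had 53.9, 96.3 and 24.7 counts at 0.8 µg and 159, 174 and 125 at 80 µg (log2 fold change 1.33, adjusted p = 0.025) and was called in 2 of 6 such fits (adjusted p = 0.102 to 0.158 without 0.8 µg replicate 1 or 3 or 80 µg replicate 1 or 2). Stat3 was lower past the p threshold (1592 against 943 counts, log2 fold change -0.75), while Stat5a (-0.31, adjusted p = 0.14) did not pass.

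Of 17 costimulatory receptors and ligands, 2 were called higher and 3 lower, beside 1.83% and 0.960% of all genes tested. Icos and Tnfrsf25 were higher, and Cd226, Tnfrsf9 and Tnfsf14 lower. With a library left out, 2 to 4 were called higher (4 without 80 µg replicate 3) and 3 lower, and in the fit to the 6 libraries 1 higher and 2 lower. Icos had 561, 542 and 337 counts with 0.8 µg, 1604, 1925 and 1403 with 80 µg and 301, 267 and 219.8 in the control (log2 fold change 1.76, adjusted p = 1.38e-19). Tnfsf14, encoding the ligand LIGHT, had 61.8, 60.2 and 47.0 counts at 0.8 µg and 24.7, 15.4 and 28.2 at 80 µg (log2 fold change -1.31, adjusted p = 0.000327). Cd28 (0.87), Tnfrsf4 (0.86), which encodes OX40, Slamf1 (0.82) and Cd40lg (0.69) were higher past the p threshold by less than the fold threshold. Tnfrsf25, encoding the receptor DR3, was below the control at both doses (58.8, 54.9 and 28.2 counts at 0.8 µg and 111, 104 and 91.4 at 80 µg, against 155, 124 and 139.9 in the control; log2 fold change 1.07, adjusted p = 0.000324), and it was not called without 0.8 µg replicate 3 (log2 fold change 0.83). Of the 14 coinhibitory receptors tested (5 more, Lag3 and Tigit among them, were too low), Ctla4 was called higher and Cd160 lower. Ctla4 had 34.3, 70.7 and 16.4 counts with 0.8 µg and 256, 195 and 262 with 80 µg (log2 fold change 2.397, adjusted p = 1.38e-05). Cd274, encoding PD-L1, was lower under the fold threshold (-0.69) and Btla was at 126 and 119 counts (adjusted p = 0.868).

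**Figure D3:**
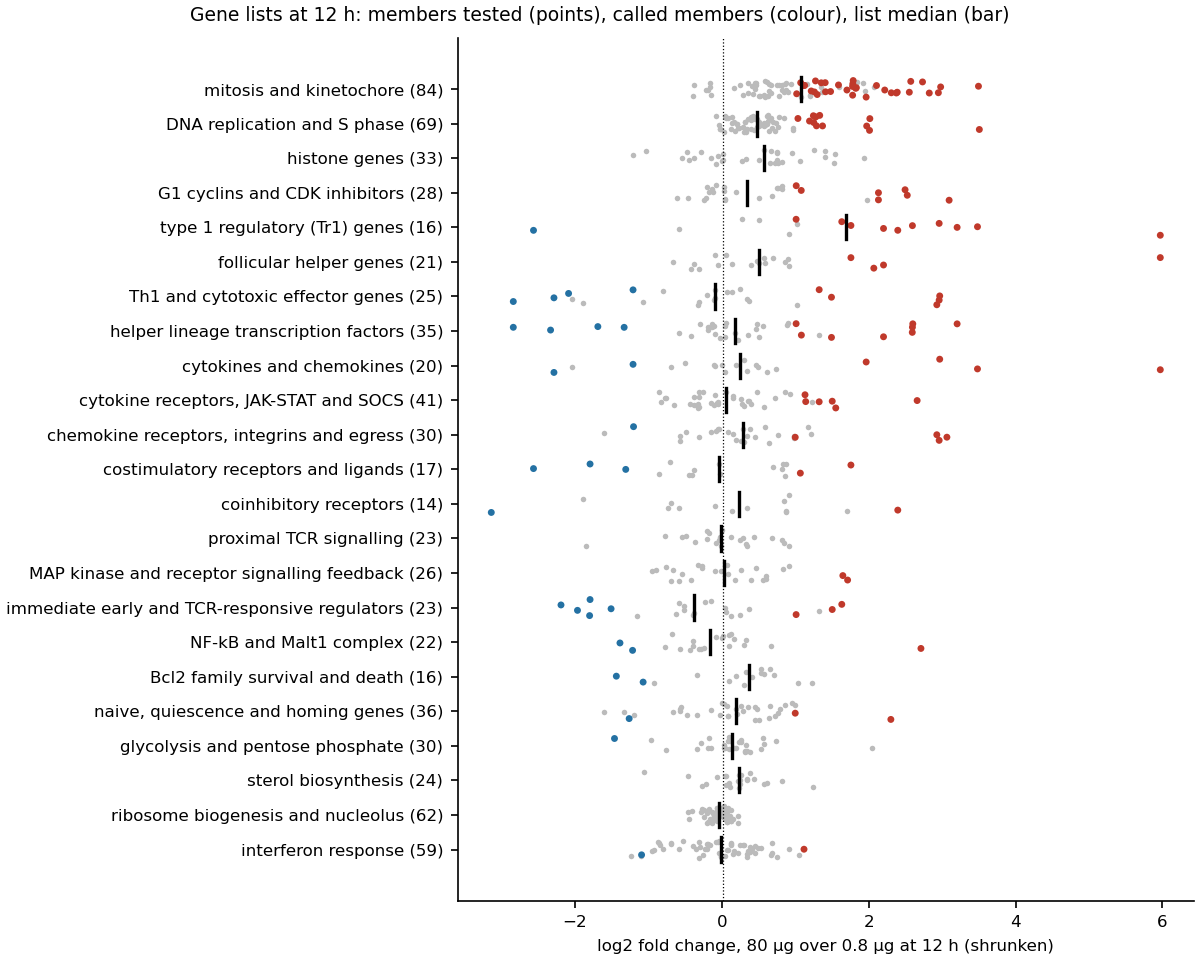
Shrunken log2 fold change of 80 µg over 0.8 µg for each tested member of 23 gene lists, with the number of members tested in brackets; coloured points were called, black bars are list medians and the dotted line is the median of all genes tested. The mitosis and Tr1 lists have medians of 1.08 and 1.70, and ribosome biogenesis genes gather around -0.04.

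The list with the most called genes was that of mitosis and kinetochore genes, with 33, followed by DNA replication and helper lineage transcription factors with 12 each. In a dividing cell, E2F factors first switch on the genes of DNA replication, and later genes of mitosis follow, many of them through CCAAT boxes (bound by NF-Y) and CHR elements of the DREAM and MuvB complexes. Of the genes called higher, 52 were members of the 3 cell cycle lists, and none of the genes called lower were. Over all genes tested, 1.83% were called higher and 0.960% lower. At the latter share, lists of this size would hold few genes called lower. Mitosis and kinetochore genes had 33 of 84 called higher and a median of 1.08. DNA replication and S phase genes had 12 of 69 and a median of 0.49, and G1 cyclins and CDK inhibitors 7 of 28 and 0.35. In the fit to the 6 libraries the replication list had 7 called and the G1 list 3, and with a library left out they had 9 to 16 and 5 to 7. In the replication list 65 of 69 members were above 0, with 23 past an adjusted p of 0.05 and none past it in the other direction.

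The promoters of 4 genes are shown because they hold, between them, the motifs of both gene waves, and each was called in every fit that left out a library. Capitals mark the E2F letters TTTCCCGC or TTTGGCGC, the CCAAT box and the CHR letters TTTGAA wherever they were found on either strand. They are from RefSeq (GRCm38.p6), 5′ to 3′ in the sense of the gene, 250 bases before the start site and 50 from it, at chr9:65890073-65890372 (plus strand), chr10:69352863-69353162 (minus strand), chr7:135716330-135716629 (minus strand) and chr2:119046869-119047168 (plus strand).
Pclaf promoter: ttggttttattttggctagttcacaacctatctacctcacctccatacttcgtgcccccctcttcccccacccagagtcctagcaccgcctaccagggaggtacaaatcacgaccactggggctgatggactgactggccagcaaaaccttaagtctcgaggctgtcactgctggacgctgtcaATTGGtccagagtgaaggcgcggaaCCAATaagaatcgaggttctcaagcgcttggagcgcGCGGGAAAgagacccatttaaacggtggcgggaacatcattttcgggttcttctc
Cdk1 promoter: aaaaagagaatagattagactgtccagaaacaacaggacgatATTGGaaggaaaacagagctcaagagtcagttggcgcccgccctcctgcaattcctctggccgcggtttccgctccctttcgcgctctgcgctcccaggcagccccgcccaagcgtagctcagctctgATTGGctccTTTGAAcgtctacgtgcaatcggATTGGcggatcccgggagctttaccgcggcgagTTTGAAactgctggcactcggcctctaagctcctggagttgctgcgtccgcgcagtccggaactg
Mki67 promoter: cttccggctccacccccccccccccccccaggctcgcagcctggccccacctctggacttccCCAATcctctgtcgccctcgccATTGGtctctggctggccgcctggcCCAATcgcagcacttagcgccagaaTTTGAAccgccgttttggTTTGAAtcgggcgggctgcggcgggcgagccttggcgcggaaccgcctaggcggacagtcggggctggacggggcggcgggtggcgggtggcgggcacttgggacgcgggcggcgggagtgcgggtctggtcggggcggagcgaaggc
Knl1 promoter: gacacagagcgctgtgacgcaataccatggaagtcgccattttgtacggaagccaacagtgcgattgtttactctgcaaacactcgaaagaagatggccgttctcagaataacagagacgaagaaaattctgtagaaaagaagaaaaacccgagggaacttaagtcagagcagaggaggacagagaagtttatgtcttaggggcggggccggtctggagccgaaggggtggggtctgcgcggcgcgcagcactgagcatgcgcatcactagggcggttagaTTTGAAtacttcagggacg
Pclaf holds an E2F match beginning 5 bases before the start site and 2 CCAAT boxes, Cdk1 holds 3 CCAAT boxes and 2 CHR matches, Mki67 holds 3 and 2, and Knl1 holds 1 CHR match that begins at base 32 of the transcript. TTTGAA was in 64.8% of the 71 promoters found for the mitosis list, against 18.1% of all 27025 promoters (1 per gene symbol) and 11.7% of the 8096 of genes tested. CCAAT was in 69.0% of them, against 37.8% of all and 39.3% of those of genes tested. An E2F match was in 30.2% of the 53 promoters of the replication list, against 8.45% of the mitosis list, 1.62% of all and 3.48% of those of genes tested. Among the genes called higher, 27.7% of 155 promoters held TTTGAA, 52.9% CCAAT and 4.52% an E2F match, and among those called lower 13.2%, 36.8% and 1.32% of 76. The AP-1 letters TGAGTCA were in 5.16% and 6.58% of the promoters of genes called higher and lower (5.20% of all, 3.01% of genes tested) and the NFAT letters GGAAAA, which can share bases with TTTCCCGC, in 18.7% and 21.1% (23.6% of all, 20.4% of genes tested). These shares describe the sequences and were not tested.

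Pclaf, a partner of the replication clamp PCNA, had 6.86, 18.8 and 5.87 counts with 0.8 µg, 139, 159 and 112 with 80 µg and 24.7, 15.2 and 25.7 in the control (log2 fold change 3.51 with an SE of 0.28, adjusted p = 4.75e-31). Of the replication genes, Rrm2, a subunit of ribonucleotide reductase, went from 27.5 ± 4.99 to 115 ± 32.1 counts (log2 fold change 2.02, adjusted p = 8.23e-13), and Clspn, a checkpoint adaptor, from 44.3 ± 24.0 to 178 ± 24.2 (log2 fold change 2.01, adjusted p = 2.12e-11). Cdc6, which loads the replicative helicase, had 52.9, 53.4 and 93.9 counts at 0.8 µg and 180.0, 164 and 172 at 80 µg (log2 fold change 1.37, adjusted p = 3.75e-07), and Uhrf1, which maintains DNA methylation at the fork, had 142, 112 and 161 counts at 0.8 µg and 284, 328 and 403 at 80 µg (log2 fold change 1.29, adjusted p = 2.71e-09). In these 4 genes the low dose was already above the control, whose highest level was 15.7 counts (Clspn). Mcm10, which acts in activating the helicase at origins, rested on single libraries: the 0.8 µg libraries had 61.8, 48.9 and 153 counts, replicate 3 the highest, against 171, 196 and 240.1 with 80 µg, and the call was lost without 0.8 µg replicate 1 or 2 or 80 µg replicate 3 (adjusted p = 0.064 to 0.0987).

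Of the 8 E2F genes tested, 4 were called higher (E2f1, E2f2, E2f7 and E2f8), and E2f3 (0.51), E2f4 (-0.45), E2f5 (-0.25) and E2f6 (0.05) were not called in either direction. E2f2, an activator, had 16.7, 9.78 and 11.7 counts with 0.8 µg, 86.8, 77.0 and 64.2 with 80 µg and 87.6, 41.6 and 91.4 in the control (log2 fold change 2.53 with an SE of 0.29, adjusted p = 7.04e-15), so that the high dose overlapped the control and the low dose lay below it. E2f7, a late repressor, had 3 counts in all with 0.8 µg and 45 with 80 µg, a ratio of 13.8 (95% interval 4.42 to 69.3). E2f8 went from 2.91 ± 0.634 to 15.0 ± 6.31 counts (log2 fold change 2.13, adjusted p = 0.00168). E2f1 had 47.1, 49.6 and 124 counts at 0.8 µg and 143, 175 and 152 at 80 µg (log2 fold change 1.08, adjusted p = 0.0113) and was not called without 0.8 µg replicate 1 or 2 or 80 µg replicate 2 (adjusted p = 0.0968 to 0.145). Ccne2, encoding cyclin E2, rose from 6.94 ± 1.95 to 44.6 ± 13.2 (log2 fold change 2.496, adjusted p = 3.27e-07), and Cdkn1a, the CDK inhibitor p21, had 27.4, 9.03 and 14.1 counts at 0.8 µg and 137, 71.9 and 29.2 at 80 µg (log2 fold change 2.13, adjusted p = 0.000379). Cdk6 (0.76) and Ccnd3 (0.82) were higher under the fold threshold, while the most counted cyclin, Ccnd2, had 12484 and 11853 counts (adjusted p = 0.825).

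Of the mitosis genes, Top2a, the topoisomerase of condensing chromosomes, had 206, 151 and 257 counts with 0.8 µg, 671, 772 and 724 with 80 µg and 78.3, 89.2 and 128 in the control (log2 fold change 1.78, adjusted p = 7.17e-08). Mki67, encoding the Ki-67 antigen, had 11.8, 26.3 and 14.1 counts at 0.8 µg and 134, 147 and 85.5 at 80 µg (log2 fold change 2.57 with an SE of 0.51, adjusted p = 3.24e-05), and Cdk1, the kinase of mitotic entry, had 36.3, 31.6 and 30.5 counts at 0.8 µg and 85.0, 81.4 and 113 at 80 µg (log2 fold change 1.48, adjusted p = 1.51e-06). Cdk1 was above the control at both doses, while Mki67 was within or below the 22.7, 33.5 and 51.4 of the control with the low dose. Birc5, encoding survivin, went from 7.55 ± 1.11 to 40.5 ± 4.41 counts (log2 fold change 2.31, adjusted p = 5.24e-09), Knl1, a kinetochore scaffold, from 6.11 ± 1.22 to 35.7 ± 8.47 (log2 fold change 2.39, adjusted p = 6.77e-08), and Ncapg, a condensin subunit, from 19.8 ± 9.99 to 84.6 ± 3.23 (log2 fold change 2.11, adjusted p = 9.6e-14). Many of the 33 had few counts, and the number called in this list was 15 in the fit to 6 libraries and 24 to 32 when a library was left out, lowest without 0.8 µg replicate 1 or 2. None of 33 histone genes tested was called by DESeq2 or edgeR (7 had an unadjusted p under 0.05), with 2 past an adjusted p of 0.05, H2afz (0.66) and Hist1h1e (0.76), and a median of 0.57. Most replication-dependent histone RNAs lack the poly(A) tail from which these libraries were primed, and the part of this in the result was not tested.

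**Figure D4:**
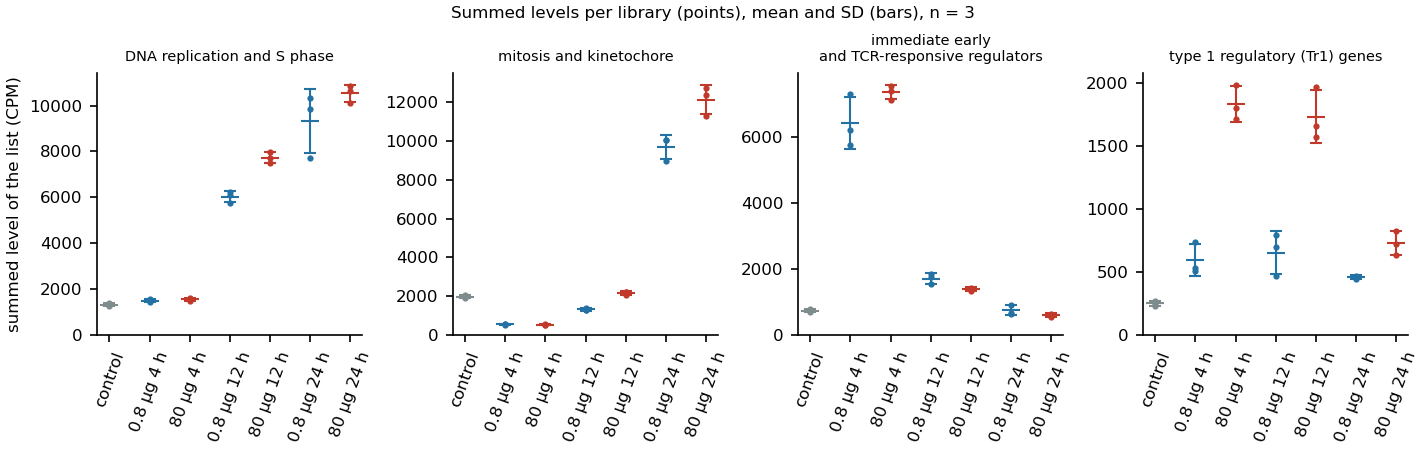
Summed level (CPM) of 4 gene lists in each library of the 7 groups, with the mean and SD (n = 3). At 12 h the mitosis list stood at 1270.4 to 1391 CPM with 0.8 µg and 2066 to 2223 CPM with 80 µg, against 8963 to 12736 CPM at 24 h.

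Summed over members, the replication list held 5747 to 6245 CPM with 0.8 µg and 7478 to 7959 CPM with 80 µg, against 1270.5 to 1380.5 CPM in the control. The mitosis list held 1270.4 to 1391 CPM and 2066 to 2223 CPM, against 1921 to 2046 CPM in the control, so that the low dose lay below the control and the high dose above it. Immediate early genes held 1523 to 1841 CPM with 0.8 µg and 1323 to 1425 CPM with 80 µg. In all 3 lists the doses did not overlap. The same held for the sums of several other lists, among them proximal TCR signalling, which had no gene called. In others, such as cytosolic ribosomal proteins, the doses overlapped. Of single genes tested, 19.0% did not overlap between the doses.

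Genes of naive and homing cells, which antigen lowers, gave 2 calls higher, Igfbp4 and Itgb7, and 1 lower, Ms4a4b, of 36. The shares over all genes tested were 1.83% higher and 0.960% lower. Igfbp4, which binds insulin-like growth factors, had 47.1, 44.4 and 47.0 counts with 0.8 µg, 217, 243 and 242 with 80 µg and 1909, 1487 and 1512 in the control (log2 fold change 2.30 with an SE of 0.25, adjusted p = 1.07e-17). Ms4a4b, a membrane protein of resting T cells, had 604, 648 and 366 counts at 0.8 µg, 225, 181 and 269 at 80 µg and 3449, 3468 and 4203 in the control (log2 fold change -1.26 with an SE of 0.16, adjusted p = 1.66e-12). Both were far below the control, and the dose nearer to it was the high dose for Igfbp4 and the low dose for Ms4a4b. Itgb7, an integrin chain of gut homing, lay at the fold threshold (log2 fold change 1.000) and lost its call without 0.8 µg replicate 1 or 3 or 80 µg replicate 2 or 3 (0.80 to 0.99). Cd44, an adhesion receptor of activated cells, was lower with 80 µg (286, 302 and 169 against 124, 115 and 86.5 counts; log2 fold change -1.20, adjusted p = 1.2e-05).

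In the Bcl2 family, Bcl2a1b, a survival gene, went from 46.3 ± 10.6 to 16.4 ± 5.90 counts (log2 fold change -1.44, adjusted p = 0.00565) and Bid, a death-promoting gene, from 88.5 ± 12.99 to 41.6 ± 3.02 (log2 fold change -1.07, adjusted p = 0.00771), 2 of 16. Over all genes tested, 0.960% were called lower. Bcl2a1b has near-identical copies between which reads can be split, and was not called without 80 µg replicate 3 (adjusted p = 0.0633). Bid was not called without 0.8 µg replicate 1 or 2 or 80 µg replicate 2 (adjusted p = 0.0572 to 0.071). Bcl2 was higher under the fold threshold (0.65), and Bcl2l11, encoding Bim, was at 434 and 343 counts (adjusted p = 0.171).

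The lists of growth, metabolism and the interferon response had from none to 2 members called each, beside 2.79% of all genes tested. Of 30 glycolysis and pentose phosphate genes, Eno3, an enolase, was called, lower with 80 µg (217, 189.5 and 181 against 88.6, 49.9 and 69.99 counts; log2 fold change -1.47, adjusted p = 0.000154), while Pkm (0.57), Pfkp (0.53) and Hk1 (0.73) were higher and Pfkfb3 (-0.97) lower under the fold threshold. None was called by DESeq2 or edgeR of 24 sterol biosynthesis genes (median 0.24), 14 fatty acid synthesis genes (0.10), 34 amino acid transport, ATF4 and one-carbon genes (0.04), 62 ribosome biogenesis genes (-0.04) or 78 cytosolic ribosomal protein genes (-0.01). At an adjusted p under 0.05 and any fold the counts in these 5 lists were 0, 1, 1, 0 and 1, and at an unadjusted p under 0.05 they were 2, 2, 5, 6 and 15. In the endoplasmic reticulum list 26 of 31 members were above 0, 5 of them past an adjusted p of 0.05, and Atf6, a sensor of unfolded proteins, was called (70.6, 67.7 and 34.0 against 131, 129 and 100.1 counts; log2 fold change 1.03, adjusted p = 0.000389), though not without 0.8 µg replicate 3 or 80 µg replicate 1 or 2 (log2 fold change 0.79 to 0.97). Of 59 interferon response genes, Gbp5 was called higher (log2 fold change 1.12, adjusted p = 0.00726) and Ifi203 lower, with a median within 0.01 of 0. Without 0.8 µg replicate 3 the counts were 2 and 4. Gbp5, a guanylate-binding protein, lost its call without 0.8 µg replicate 2 or 80 µg replicate 2 (adjusted p = 0.115 and 0.138).

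To ask which dose effects belonged to 12 h, the difference between the dose effect at 12 h and that at each other time was tested on unshrunken log2 fold changes. It was called for 441 genes against 4 h (4.43% of 9959 tested) and 139 against 24 h (1.44% of 9663). Of the 311 genes called at 12 h, 73 had a dose effect different from that at 4 h and 74 from that at 24 h. Both differences were called in the same direction for 31 genes, 18 positive and 13 negative, of which 22 were called at 12 h. Every comparison in this paragraph uses the same 12 h libraries, and the gate differs between the times.

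Among the 6 named genes with a larger effect at 12 h, 4 were cell cycle genes. Pclaf had 2.76 ± 2.56 and 2.19 ± 2.33 counts at 4 h with 0.8 and 80 µg (SD, n = 3), 10.5 ± 7.20 and 137 ± 23.8 at 12 h, and 1417 ± 281 and 2019 ± 8.51 at 24 h. Its dose effect at 12 h exceeded that at 4 h by 4.19 (SE 0.85, adjusted p = 4.56e-05) and that at 24 h by 3.08 (SE 0.33, adjusted p = 1.03e-16). Birc5 had 5.85 ± 1.81 and 5.23 ± 1.35 counts at 4 h, 7.55 ± 1.11 and 40.5 ± 4.41 at 12 h, and 699 ± 172 and 1205 ± 61.8 at 24 h. Ccne2 had 15.3 ± 7.44 and 20.5 ± 5.34 counts at 4 h, so that its mean with 0.8 µg at 12 h (6.94 ± 1.95) lay below both. Knl1 at 4 h had 10.2 ± 6.03 counts with 0.8 µg and 0.857 ± 1.49 with 80 µg, the opposite order to that at 12 h (6.11 ± 1.22 and 35.7 ± 8.47). All 4 genes had their highest means of the 3 times at 24 h, at both doses. Zc3h12d, a regulator of mRNA stability, differed in its course: it had 27.4, 21.8 and 14.1 counts with 0.8 µg and 122, 139 and 96.2 with 80 µg at 12 h, while the control had 114, 109 and 95.6 and the groups at 4 h and 24 h had means of 93.1 to 170.4. By group means, the low dose at 12 h was thus the 1 group that stood apart, and the difference was 1.97 (SE 0.32, adjusted p = 5.03e-08) from 4 h and 2.17 (SE 0.31, adjusted p = 1.3e-09) from 24 h. The last of the 6 was 1810024B03Rik, a protein-coding gene (10.3 ± 2.37 and 35.6 ± 8.93 counts at 12 h), whose call at 12 h was lost without 0.8 µg replicate 2 or 80 µg replicate 1 or 2 (adjusted p = 0.053 to 0.0827).

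**Figure D5:**
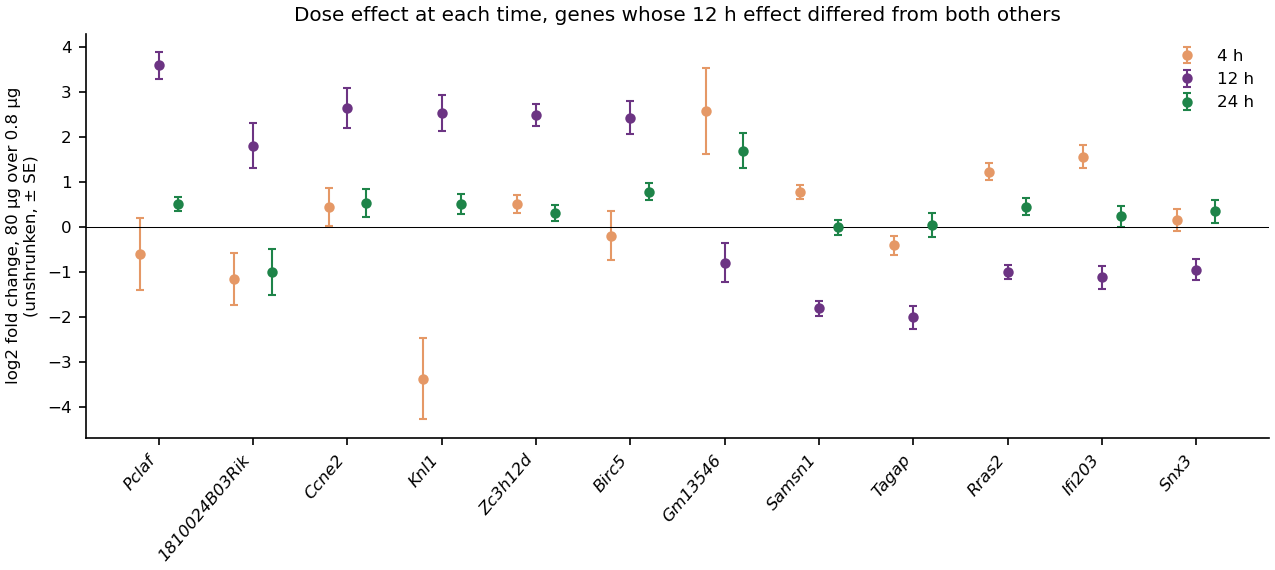
Unshrunken log2 fold change of 80 µg over 0.8 µg, with its SE, at 4 h, 12 h and 24 h for the 12 named genes whose effect at 12 h differed from that at both other times. The 12 h value is the highest of the 3 in the 6 genes on the left and the lowest in the 6 on the right.

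Among the 6 with a more negative effect at 12 h, Samsn1, an adaptor that dampens antigen receptor signalling, was the clearest. It had 248 ± 11.6 and 422 ± 21.1 counts at 4 h with 0.8 and 80 µg, 517, 566 and 405 at 0.8 µg and 152, 139 and 135 at 80 µg in the libraries at 12 h, and 133 ± 24.1 and 133 ± 23.7 at 24 h. At 12 h it fell by 1.80 on the log2 scale with 80 µg (adjusted p = 6.87e-26), and the difference was -2.58 (SE 0.23, adjusted p = 9.14e-27) from 4 h and -1.80 (SE 0.24, adjusted p = 4.19e-11) from 24 h. Rras2, a Ras-related GTPase, had 399, 420.5 and 400.4 counts at 0.8 µg and 173, 203 and 234 at 80 µg counts at 12 h, a log2 fold change of -0.995 that just missed the threshold, against 68.4 ± 10.1 and 162 ± 21.2 at 4 h. Tagap had 1087 ± 331 and 819.9 ± 40.7 counts at 4 h and 40.2 ± 16.4 and 40.2 ± 12.1 at 24 h, with a dose difference called at 12 h. Ifi203, an interferon-inducible gene which shares exonic bases with Mndal on its own strand, had 230.2 ± 29.5 and 107 ± 27.0 counts at 12 h and 1965 ± 154 in the control, and was not called at 12 h without 80 µg replicate 2 (log2 fold change -0.91). Snx3, a sorting nexin, had 739, 813 and 507 counts at 0.8 µg and 483, 178 and 410.2 at 80 µg counts at 12 h (log2 fold change -0.93), and Gm13546, an antisense gene, 30.4, 36.1 and 25.8 at 0.8 µg and 15.5, 17.6 and 20.4 at 80 µg (adjusted p = 0.342). Neither passed both thresholds at 12 h itself.

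Outside the 12 named, both differences were called in the same direction for 7 list members called at 12 h (E2f2, Clspn, Esco2, Kif4, Cd5, Bach2 and Cd44), and for Gzmb, Stat4 and Tnip3, which were not called at 12 h. Gata3 differed in dose effect by -2.95 (SE 0.22, adjusted p = 1.4e-36) from 24 h, when it had 308 ± 41.5 and 467 ± 15.8 counts with 0.8 and 80 µg, the opposite order to 12 h, and by -0.75 (SE 0.23, adjusted p = 0.0199) from 4 h, under the fold threshold. Nr4a1 differed by -2.16 (SE 0.55, adjusted p = 0.00252) from 4 h, when both doses were high (2176 ± 295 and 2008 ± 187 counts), and by -1.25 (SE 0.57, adjusted p = 0.293) from 24 h, which did not pass. Egr2 differed by 3.97 (SE 0.65, adjusted p = 7.29e-07) from 24 h and by 0.67 (SE 0.48, adjusted p = 0.494) from 4 h, the latter not past the threshold. Of 84 mitosis genes tested at 12 h, 11 had a dose effect different from that at 4 h and 11 from that at 24 h, 4 from both, and of 69 replication genes 5, 4 and 2. Over all genes tested, the difference was called for 4.43% against 4 h and 1.44% against 24 h.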

How the data were processed

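RNA was measured by 3′ QuantSeq sequencing in 21 libraries, 3 for each of 7 groups, and groups were taken from the labels. Both deposited tables were used. The authors aligned reads with STAR 2.5.2a, counted them per gene with HTSeq on GRCm38 and deposited raw counts. The deposited log2 values are regularised log (rlog) values made by the authors with DESeq2 and served only as an alternative. Whether counting used strand is not stated in the sources used here. Of the 130 named genes, 38 have an exon that overlaps a gene on the opposite strand, among them Gata3, Eomes, Maf, Rora, Ikzf2 and Tox. Their counts carry the same limit as those of Il21. On the same strand 6 named genes have such an overlap, among them Gata3, Top2a, Bcl2a1b, Gm14005 and Ifi203. Strand cannot separate reads in those shared bases. CPM is the count divided by the library total, per 1000000.

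All 21 libraries were fitted together by group with DESeq2 1.42.0 (Wald test, genes with at least 10 counts in all, 15300 of 47643), and normal shrinkage was applied to fold changes within a time. A call needed a Benjamini-Hochberg adjusted p under 0.05 and a log2 fold change above 1 in size. No adjusted p was given to 4153 genes for a low mean count and no p to 2 for an outlying count, which leaves 11145 tested. Differences in dose effect between times were contrasts of the same fit. R 4.3.3, edgeR 4.0.16 and limma 3.58.1 were used for alternatives, and the fits were tested on simulated data. Permutation tests were exact and two-sided. Intervals and the floor of 3 counts cover counting error only. The labels call the replicates biological, and p-values measure the spread between them. Gene positions are from GENCODE vM21, and promoters are RefSeq sequences on GRCm38.p6. Of 32851 such promoters, 1 was kept for each of 27025 gene symbols, the first when sorted by chromosome and start. Other start sites of a gene were not searched for motifs.

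Named genes were the 15 largest called changes each way that averaged 20 or more normalised counts and did not overlap between doses, called list members, list members that were not called, given with their values, and up to 6 genes each way whose dose effect differed from both other times. The comparison and the 37 gene lists were chosen with earlier results of these data known. Depth, filters, scaling, tool and single libraries were varied, and no column of the tables was left without a sample. A few called list members are counted but not reported by name here.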

Additional observations from a re-analysis of the deposited data

Results flagged for a closer look

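The dose effect at 12 h (unshrunken log2 fold change of 80 µg over 0.8 µg) differed by contrast tests from those at 4 h and at 24 h, in the same direction, for 12 named genes, and these were picked up because an effect differed between groups under the same contrast. Pclaf exceeded its effect at 4 h by 4.19 and at 24 h by 3.08, with 2.76 ± 2.56 and 2.19 ± 2.33 counts at 4 h with 0.8 and 80 µg. 1810024B03Rik exceeded them by 2.97 and 2.80. Ccne2, a cyclin of S phase entry, exceeded them by 2.21 and 2.13. Knl1 exceeded them by 5.90 and 2.02, its effect at 4 h resting on few counts (10.2 ± 6.03 and 0.857 ± 1.49 with 0.8 and 80 µg). Zc3h12d exceeded them by 1.97 and 2.17, and Birc5 by 2.62 and 1.64.

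The other 6 genes had a more negative effect at 12 h. The differences from 4 h and 24 h were -3.38 and -2.50 for Gm13546 (at 4 h 1.16 ± 1.09 and 7.04 ± 5.19 counts with 0.8 and 80 µg), -2.58 and -1.80 for Samsn1, and -1.60 and -2.05 for Tagap. They were -2.23 and -1.45 for Rras2, -2.68 and -1.35 for Ifi203, and -1.10 and -1.29 for Snx3. The sorting gate changed with time, so that gate and time cannot be told apart in any of these differences.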

How the results depend on the processing

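The 12 h comparison gave 311 called genes, 204 higher and 107 lower. In the fit to the 6 libraries alone it gave 145, 100 and 45, a fit with fewer libraries behind the spread. An adjusted p under 0.05 at any fold size gave 699, 409 and 290, with 711 genes for the difference from 4 h and 255 for that from 24 h, against 441 and 139. Leaving out 1 library gave 227 to 330 genes, 159 to 208 higher and 68 to 122 lower, lowest without 80 µg replicate 2 in each case (68 lower), and 368 to 539 and 100 to 166 genes for the differences from 4 h and 24 h. edgeR gave 326, TMM size factors 319, no filter on low counts 310, a filter of 10 counts in 3 libraries 337, thinning to the smallest total 270, limma on the rlog values 267, and unshrunken fold changes 317. Replicate numbers gave no clear pairing of the libraries: same-numbered libraries of the doses had correlations of deviations of 0.115, -0.0498 and 0.162. Libraries with different numbers had -0.213 to 0.130, and sex followed the number at 12 h. With a replicate block the counts were 288 over the 21 libraries and, over the 6 alone, 102 (68 higher and 34 lower). Over 130 named genes and these settings, other than the adjusted p at any fold size, 1805 results kept direction and call, 268 lost the call, 7 gained it and none reversed. The floor of 0.606 to 0.957 CPM limits low genes: 23 called genes had at most 3 counts in 1 dose group.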

Other observations

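Some called genes outside the lists had almost no counts at one dose, and they were chosen here after their values were seen. Timp1, an inhibitor of metalloproteinases, had 1 count over the 0.8 µg libraries and 83 over the 80 µg libraries, a ratio of 76.2 (95% interval 13.3 to 3046, counting error only). Aunip, which encodes an Aurora kinase A-interacting protein, had 2 and 68 counts, a ratio of 31.2 (8.32 to 263). Ly6a, encoding the surface antigen Sca-1, came just after the 15 named rises and had 240.5 ± 55.1 counts with 0.8 µg, 1515 ± 144 with 80 µg and 291 ± 30.3 in the control (SD, n = 3). It rose in the DESeq2 fit (log2 fold change 2.57 with an SE of 0.35, adjusted p = 3.51e-11). The doses did not overlap.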
